A study of Mus musculus with 11 samples.

Results

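The patterning factors of the olfactory placode and epithelium examined here were Six4, Pax6, Otx2, Dlx5, Emx2, Sox2, Meis1 and Meis2. Every probe set that the annotation of the Affymetrix mouse genome expression array maps to 1 of these 8 symbols and to no other gene was taken, which gave 20 of the 45101 probe sets on the array, for 8 of 18194 genes with a probe set of their own. A probe set is a group of short oligonucleotides that report 1 transcript or a few related ones. RNA came from whole main olfactory epithelium (MOE) of newborn BALB/c mice at postnatal day 0, 1 array per preparation, from 5 wild type mice and 6 mice with a conventional Bcl11b knockout (KO). In the KO the gene was disrupted on both alleles rather than in a chosen cell type, so cells of every kind in the tissue lacked it. All 5 wild type preparations and 4 KO preparations were from males, and KO replicates 3 and 6 were from females. The comparison asks whether the factors that pattern the olfactory tissue differ in RNA level in newborn MOE without Bcl11b, a zinc finger transcription factor of olfactory sensory neurons (OSNs).

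The olfactory placode is a thickening of the head ectoderm that folds inward to form the nasal pit, from which OSNs, their progenitors and supporting cells arise. Homeodomain, paired-box and SOX factors act in the placode, and several of them remain in use in the epithelium, in basal progenitors, supporting cells or neurons. Emx2 is a homeodomain factor needed for normal odorant receptor expression and OSN axon growth. Meis1 and Meis2 are homeodomain factors of the TALE class, which bind DNA together with Pbx and Hox proteins.

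The upstream sequences of 4 of the genes are shown because the signals of Emx2 and Sox2, and those of Meis1 and Meis2, deviated together from array to array, as described further on. Each sequence holds the 250 bases before a transcription start in RefSeq (GRCm38.p6), read 5′ to 3′ on the gene's strand. Capitals mark CCAAT or GGGCGG on either strand, so that ATTGG and CCGCCC are also in capitals. The Emx2 window lies at chr19:59458440-59458689 on the + strand and the Sox2 window at chr3:34649745-34649994 on the + strand. The Meis1 window lies at chr11:19018970-19019219 on the - strand and the Meis2 window at chr2:116064620-116064869 on the - strand.
Emx2: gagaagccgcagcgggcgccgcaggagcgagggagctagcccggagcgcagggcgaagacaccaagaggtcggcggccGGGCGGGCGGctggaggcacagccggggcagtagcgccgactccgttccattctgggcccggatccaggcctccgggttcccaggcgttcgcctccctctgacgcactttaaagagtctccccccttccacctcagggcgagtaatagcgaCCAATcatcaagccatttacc
Sox2: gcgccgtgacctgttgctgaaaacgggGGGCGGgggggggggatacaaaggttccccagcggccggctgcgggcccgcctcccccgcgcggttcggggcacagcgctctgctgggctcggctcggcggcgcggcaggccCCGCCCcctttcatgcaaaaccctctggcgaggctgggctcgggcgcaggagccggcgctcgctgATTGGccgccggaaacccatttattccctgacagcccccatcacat
Meis1: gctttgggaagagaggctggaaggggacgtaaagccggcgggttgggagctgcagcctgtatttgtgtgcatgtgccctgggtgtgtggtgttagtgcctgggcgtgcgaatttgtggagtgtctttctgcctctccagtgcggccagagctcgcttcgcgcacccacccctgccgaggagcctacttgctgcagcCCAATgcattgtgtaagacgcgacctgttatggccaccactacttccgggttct
Meis2: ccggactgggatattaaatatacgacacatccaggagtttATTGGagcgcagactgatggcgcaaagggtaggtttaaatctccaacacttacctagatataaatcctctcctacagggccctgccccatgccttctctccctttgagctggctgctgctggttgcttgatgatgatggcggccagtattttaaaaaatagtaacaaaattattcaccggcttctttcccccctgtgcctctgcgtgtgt
Each of the 4 windows held 1 CCAAT. The Emx2 and Sox2 windows held 2 GGGCGG each, overlapping in Emx2 by part of their letters, and the Meis1 and Meis2 windows held 0. Windows were found for 7 of the 8 genes, 12 in all, and none for Dlx5. CCAAT occurred in 7 of these 12 windows and in 33.8% of all 32851 windows of this length in the table, and GGGCGG in 4 of 12 and in 32.7%. Some genes have several starts, so these windows are not independent. The 2 Six4 windows overlap and count the same GGGCGG, and 2 of the Otx2 windows overlap. CpG was common in Sox2 (27) and Emx2 (24), fewer in Meis1 (13) and fewest of these 4 in Meis2 (7), against a median of 6 over all windows.

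Bcl11b itself was lower on every KO array than on any wild type array. Its brightest probe set, 1435227_at, averaged 3257 in wild type (SD 529, n = 5) against 893 in KO (SD 242, n = 6), a log2 difference of -1.88 ± 0.17 (SE, limma adjusted p = 1.2e-05). Median signals per array were 56.6 to 85.5 in wild type and 61.9 to 86.3 in KO. KO replicate 3 stood apart from the other KO arrays. Its GAPDH 3′ to 5′ signal ratio, which is raised by shortened RNA, was 2.70 against 1.82 to 2.42 on the other KO arrays, and the summed signal of nasal gland markers was 1608.5 against 16941.2 to 25147.5 on the other KO arrays and 17810.4 to 20248.6 in wild type. Of the 18 tested probe sets of the patterning factors, 11 were lowest among the KO arrays on this array, as were 39.8% of all tested probe sets. Wild type replicate 4, the array of lowest median signal, was the lowest wild type array for 11 of the 18 and for 53.2% of all. The arrays were also put into 2 groups by their spiked poly-A controls, RNAs added before labelling. The cut was made at the widest gap between the sorted array means, a rule that always gives 2 groups, and the labels name no such groups. Wild type replicates 1 and 2 and KO replicates 4 to 6 had higher levels (8.67 to 9.08, mean log2). The other 6 arrays had lower levels (7.99 to 8.40). For patterning factor probe sets of at least 100 mean signal, differences were also taken with each array left out in turn. Where leaving out 1 array moved such a difference by over 1.5 times, the value without it is given, or the range over the arrays left out. For the marker genes and related genes no such values are given, so their dependence on 1 array is not shown.

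No probe set of the 8 factors passed the threshold of an adjusted p of 0.05 in limma's test over all 33662 probe sets tested. Of the 20 probe sets, 18 had a mean signal of at least 20 and were tested, with 0 higher and 0 lower in KO, where 0.244% of all probe sets were called higher and 0.211% lower. Before adjustment 4 of the 18 had a p under 0.05, all higher in KO and all from Six4 and Meis2, 2 of each, against 4.47% of all probe sets with such a p in that direction and 6.92% in either direction. Estimates were above 0 for 14 of the 18, against 60.4% of all probe sets, with a median log2 difference of 0.23 against 0.047 for all. These are not 18 independent values, since probe sets of a gene can follow each other (r = 0.94 between the 2 of Six4 and 0.92 between the 2 of Meis2, n = 11 arrays). With the brightest probe set of each gene alone, 6 of 8 estimates were above 0, with a median of 0.17. On no probe set were the groups of arrays fully apart, which occurred for 1.29% of all. The 95% intervals of the 18 differences reached from -0.61 to 0.97 on the log2(signal + 16) scale. On GAPDH-scaled values each lay inside a 2-fold change of signal + 16 either way. Changes in signal alone are understated on this scale, most for dim probe sets, and are not bounded by these intervals. The 2 probe sets below the filter were 1427701_a_at of Six4, at 1.3 to 36.9, and 1425960_s_at of Pax6, at 0.8 to 8.4. In whole tissue, fewer cells of a type and less RNA per cell cannot be told apart.

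**Figure D1:**
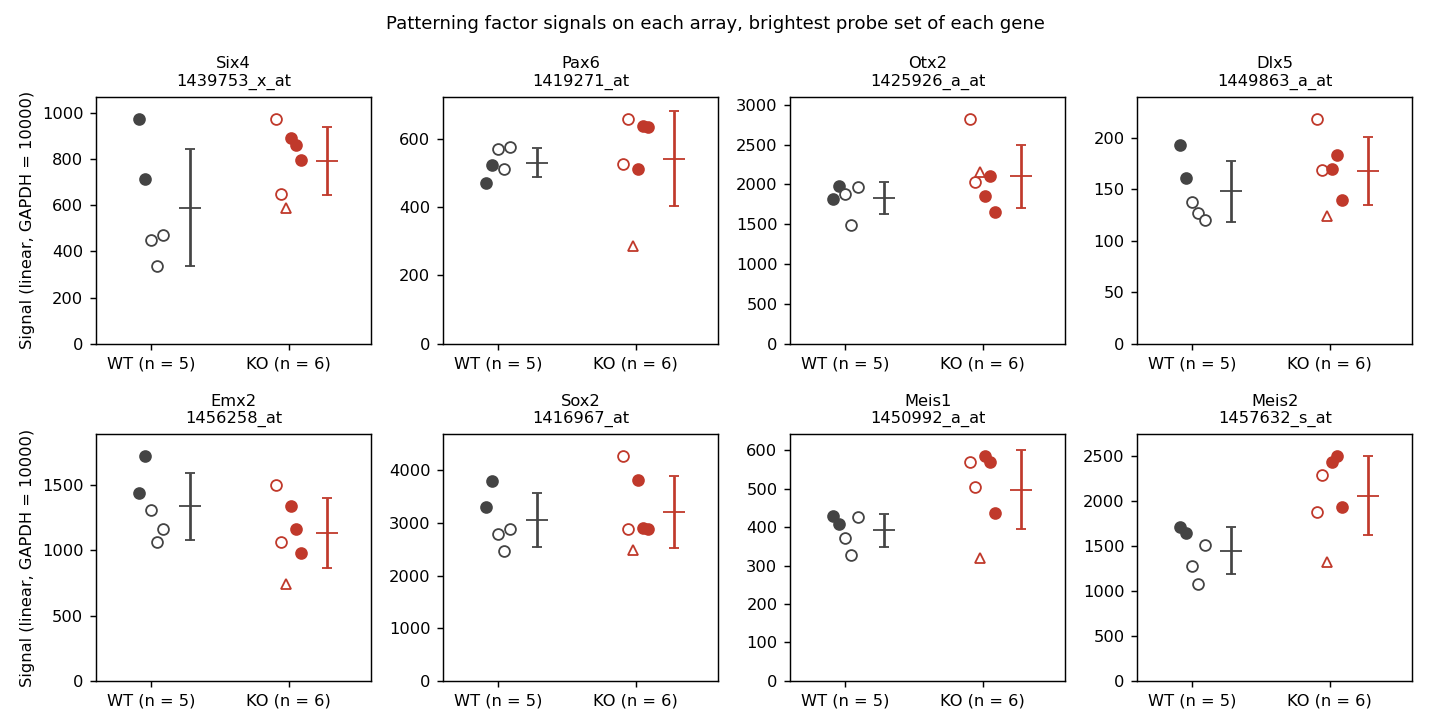
Signal on each array for the brightest probe set of each of the 8 genes, on a linear scale where the GAPDH scaling probe set reads 10000, for 5 wild type (WT) and 6 KO arrays. Bars are mean ± SD, arrays whose poly-A controls were higher are filled and the others open, and the triangle is KO replicate 3, which was the lowest KO array for Six4, Pax6, Dlx5, Emx2, Sox2, Meis1 and Meis2.

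The factors first used in placode formation and in progenitors showed small differences. Sox2, an HMG-box factor kept in progenitors and supporting cells, had signals of 3295.7, 3797.3, 2797.4, 2462.7 and 2890.3 on wild type arrays 1 to 5, and a lowest, median and highest signal of 2480, 2898.4 and 4263.4 in KO. The groups lay over each other, with 2 KO arrays above the highest wild type array. The log2 difference of probe set 1416967_at was 0.063 ± 0.14 (SE, 95% interval -0.24 to 0.36, limma adjusted p = 0.987). Scaled on the spiked hybridization controls, a scaling that moved the median of all probe sets from 0.047 to -0.12, it was -0.13. With each array left out in turn it ran from -0.024 (without KO replicate 1) to 0.15 (without wild type replicate 2), and was -0.0100 without wild type replicate 4 and 0.13 without KO replicate 3.

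Pax6, a paired-box factor without which no nasal placode forms, read 472.6, 523.7, 570.4, 513.7 and 576.9 on the wild type arrays with its brightest probe set, 1419271_at. In KO the lowest, median and highest signals were 285.5, 581.9 and 659.3. The lowest was KO replicate 3, while the other 5 KO arrays lay between 513.9 and 659.3. The log2 difference was -0.014 ± 0.18 (SE, 95% interval -0.40 to 0.38, limma adjusted p = 0.998), 0.15 without KO replicate 3 (adjusted p = 0.700), and -0.078 to 0.016 with any other array left out. The other 3 tested Pax6 probe sets were dim, with mean signals of 24.9 to 64.4 and log2 differences of -0.082 to 0.088 (adjusted p of at least 0.987).

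Otx2, a homeodomain factor of head development, read 1818.7, 1980.8, 1879.6, 1493.7 and 1970.9 on the wild type arrays and 1649.6, 2069.9 and 2820.2 as lowest, median and highest in KO. Of the KO arrays 4 were above the highest wild type array, and the lowest, KO replicate 6, was inside the wild type range. Probe set 1425926_a_at differed by 0.19 ± 0.13 (SE, log2, 95% interval -0.087 to 0.46, limma adjusted p = 0.914). The difference was 0.0995 without KO replicate 1 and 0.12 without wild type replicate 4.

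Six4, a homeodomain factor that acts with Eya proteins, had 3 tested probe sets, all with higher means in KO. The brightest, 1439753_x_at, read 974.9, 715.6, 450.6, 336.6 and 473.4 on the wild type arrays and 589.7, 829.6 and 974.4 as lowest, median and highest in KO. The wild type arrays were split, with replicates 1 and 2 as high as KO arrays and replicates 3 to 5 below every KO array. The mean was 590.2 ± 256 in wild type and 794.5 ± 148 in KO (SD, n = 5 and 6), and the log2 difference of 0.50 ± 0.22 (SE, 95% interval 0.029 to 0.96) missed the threshold (limma adjusted p = 0.668). It was 0.32 without wild type replicate 4 and, scaled on the hybridization controls, 0.31.

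In wild type the split of the Six4 signal ran along the poly-A controls, with replicates 1 and 2 higher in both. Among KO arrays the highest signal, 974.4, was that of replicate 1, an array of lower controls. Deviations of 1439753_x_at from the group means had r = 0.70 with the poly-A controls and 0.84 with the median signal of the array (n = 11). Among the arrays with higher controls the difference of 1439753_x_at was 0.025, and among those with lower controls 0.77 (limma adjusted p = 0.992 and 0.574). Probe set 1456862_at, made from the same source sequence, read 409.7 to 942.9 in wild type and 547.9 to 903.8 in KO and differed by 0.34 ± 0.21 (SE, adjusted p = 0.872), which became 0.22 without wild type replicate 4 and 0.52 without wild type replicate 1. The third, 1425767_a_at, at 230.8 to 428.1 and 285.4 to 497.4, differed by 0.40 ± 0.19 (SE, 95% interval 0.0021 to 0.80, adjusted p = 0.718), with 4 of 6 KO arrays above the highest wild type array. Within the same sets of arrays 1425767_a_at differed by 0.20 and 0.47. Six4 is also expressed in muscle. Of 4 skeletal muscle markers tested, Ckm, muscle creatine kinase, was higher in KO (19.0 ± 21.1 against 76.2 ± 15.3, log2 difference 1.53, limma adjusted p = 0.00895), and the summed signal of the marker list was 119.3 to 339.2 in wild type and 238 to 541.3 in KO, with Myog under the filter. The part of muscle RNA, of the poly-A groups and of the array median in the Six4 signal was not tested.

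Dlx5, a homeodomain factor needed for OSN axons to reach the bulb, had 1 probe set, 1449863_a_at, which read 193.2, 161.1, 137.5, 126.4 and 120.1 in wild type. The KO arrays had a lowest, median and highest signal of 124.3, 168.6 and 217.9. The ranges shared most of their length, and the log2 difference was 0.16 ± 0.17 (SE, 95% interval -0.20 to 0.52, limma adjusted p = 0.967). With 1 array left out it was 0.086 without KO replicate 1, 0.099 without wild type replicate 5 and 0.25 without wild type replicate 1. It was 0.34 among the arrays with lower poly-A controls and -0.10 among those with higher ones. Dlx5 is also a bone gene, and the summed signal of 2 bone markers ran from 388.4 to 1906 in wild type and from 729.3 to 3400.3 in KO, whose part in the Dlx5 signal was not tested.

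Emx2 had the lowest estimate of the 18 probe sets, with an interval that included 0. Probe set 1456258_at read 1435.2, 1717.6, 1310, 1059.8 and 1158.8 on the wild type arrays and 743.7, 1110.05 and 1500.1 as lowest, median and highest in KO. KO replicates 3 and 6 were below the lowest wild type array, and the other 4 KO arrays were inside the wild type range. The log2 difference was -0.25 ± 0.17 (SE, 95% interval -0.61 to 0.10, limma adjusted p = 0.908). The difference was -0.14 without KO replicate 3, -0.22 without KO replicate 6 and -0.16 without wild type replicate 2. It was -0.070 among males alone, which leaves out both of those KO arrays, -0.099 without KO replicates 2 and 3, the arrays of highest GAPDH ratio, and -0.44 scaled on the hybridization controls (adjusted p = 0.230). Markers of mature OSNs, in which Emx2 is also expressed, were lower in KO. Of 5 tested, 2 passed, Cnga4 and Gnal, both of odorant signal transduction, and the summed signal of the list was 5430.1 to 7083.3 in wild type against 3425.9 to 4823.2 in KO. The part of that change in the Emx2 values was not tested.

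Meis2 had the smallest p of the 8 genes, and its probe sets came past the threshold only in fits that left out KO replicate 3. Its brightest probe set, 1457632_s_at, read 1705.9, 1645, 1277, 1081.9 and 1514.3 on the wild type arrays and 1322, 2112.8 and 2494.4 as lowest, median and highest in KO. The 5 KO arrays other than replicate 3 were all above the highest wild type array. Mean signals were 1445 and 2058 (SD 261 and 441, n = 5 and 6), a fold of 1.41 (95% interval 1.11 to 1.79) and a log2 difference of 0.49 ± 0.16 (SE, limma adjusted p = 0.356).

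A second Meis2 probe set, 1417129_a_at, had the KO arrays in the same order, with 745, 663.5, 662.4, 478.5 and 656.9 in wild type and 484, 928 and 1280.7 as lowest, median and highest in KO. Its 5 KO arrays other than replicate 3 also exceeded every wild type array, and the log2 difference was 0.49 ± 0.20 (SE, 95% interval 0.071 to 0.90, adjusted p = 0.579). Without KO replicate 3 the difference was 0.66 ± 0.14 (SE, limma adjusted p = 0.0450) in 1417129_a_at and 0.61 ± 0.13 (SE, adjusted p = 0.0488) in 1457632_s_at, the only 2 probe sets of the 18 called higher in that fit, where 0.362% of all were. Leaving out KO replicate 2 as well, the array of next highest GAPDH ratio, 1417129_a_at differed by 0.68 (adjusted p = 0.0434) and 1457632_s_at by 0.60 (adjusted p = 0.0622), with 0.606% of all called higher. Among males alone both had an adjusted p of 0.0578, in a fit that called 0.285% of all higher. The median difference of all probe sets also moved, from 0.047 with all arrays to 0.091 without KO replicate 3. It was 0.13 without KO replicates 2 and 3, 0.086 among males and -0.0078 without wild type replicate 4. Without wild type replicate 4 the differences were 0.39 in 1417129_a_at and 0.40 in 1457632_s_at (limma adjusted p = 0.99997 and 0.768). Scaled on the hybridization controls they were 0.30 and 0.31 (adjusted p = 0.516 and 0.392).

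The 2 remaining Meis2 probe sets gave the same sign with wider errors. In 1447861_x_at the signals ran from 198.1 to 481.7 in wild type and 220.2 to 695.5 in KO (log2 difference 0.44 ± 0.25, SE, adjusted p = 0.843), and in 1440091_at from 54.3 to 167.2 and 70.9 to 183.4 (0.32 ± 0.26, SE, adjusted p = 0.943). Without wild type replicate 4 they differed by 0.29 and 0.19, and 1440091_at by 0.14 without wild type replicate 3 and 0.49 without wild type replicate 5. Over the 11 arrays, 1440091_at followed the other 3 poorly (r = 0.25 to 0.36 of deviations from the group means, n = 11), while those 3 followed each other (r = 0.92 to 0.96). Deviations of 1457632_s_at had r = 0.74 with the poly-A controls, the highest of the 8 genes, and 0.66 with the median signal of the array. The part of either in the Meis2 values was not tested. Within the arrays of higher and lower poly-A controls, 1457632_s_at differed by 0.44 and 0.48, and 1417129_a_at by 0.60 and 0.32. Meis2 is also expressed in forebrain and bulb cells. Of 8 markers of bulb and forebrain 0 passed limma's test, with 2 at an unadjusted p under 0.05, and their summed signal was 289.7 to 564.1 in wild type and 323 to 2009.3 in KO, highest in KO replicate 5 and next in KO replicate 6 (809.9). Meis2 1457632_s_at read 2430.4 in KO replicate 4, 2494.4 in KO replicate 5 and 1937 in KO replicate 6. The marker sum was 491.4 in KO replicate 4. The part of such cells in the Meis2 signal was not tested.

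**Figure D2:**
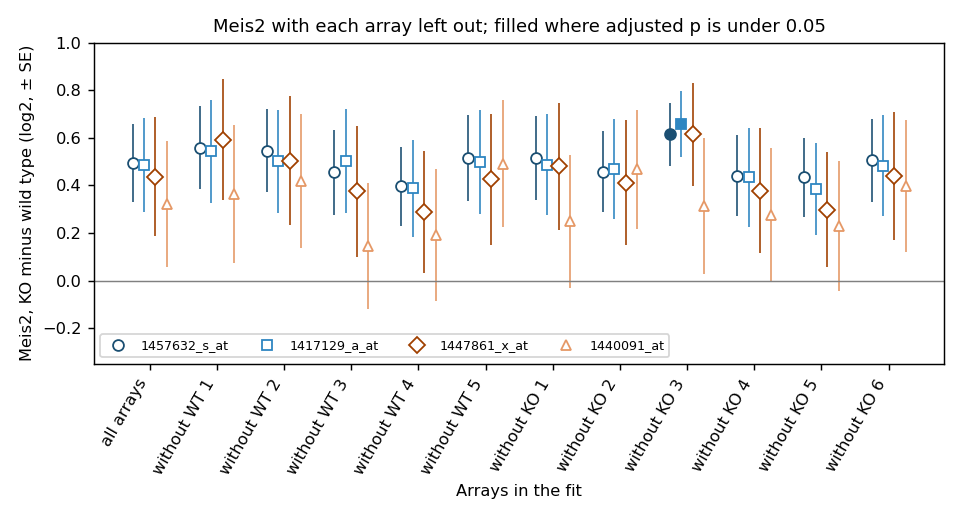
Log2 difference (KO minus wild type, ± SE) of the 4 Meis2 probe sets with all 11 arrays and with each array left out in turn, filled where the limma adjusted p is under 0.05. All estimates lie above 0, and only 1457632_s_at and 1417129_a_at are filled, and only without KO replicate 3.

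Meis1, the close relative of Meis2, read 428.7, 407.1, 372.9, 327 and 426.1 on the wild type arrays with probe set 1450992_a_at. The lowest, median and highest KO signals were 320.2, 537 and 584. As in Meis2, the 5 KO arrays other than replicate 3 exceeded the highest wild type array. KO replicate 3 was below the lowest wild type array in Meis1, whereas in Meis2 it was inside the wild type range. The log2 difference was 0.31 ± 0.16 (SE, 95% interval -0.033 to 0.65, limma adjusted p = 0.797), 0.43 without KO replicate 3 (adjusted p = 0.213) and 0.13 scaled on the hybridization controls. Probe set 1443260_at ran from 59.2 to 130.9 in wild type and 86.2 to 147.9 in KO, with 3 KO arrays above the highest wild type array and KO replicate 3, the lowest in the brightest probe set, now the highest. Its difference was 0.27 ± 0.20 (SE, adjusted p = 0.928), or 0.12 without wild type replicate 3, and its deviations followed those of 1450992_a_at weakly (r = 0.25, n = 11). The dim 1459423_at (mean signal 37.2) differed by -0.063 ± 0.24 (SE).

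**Figure D3:**
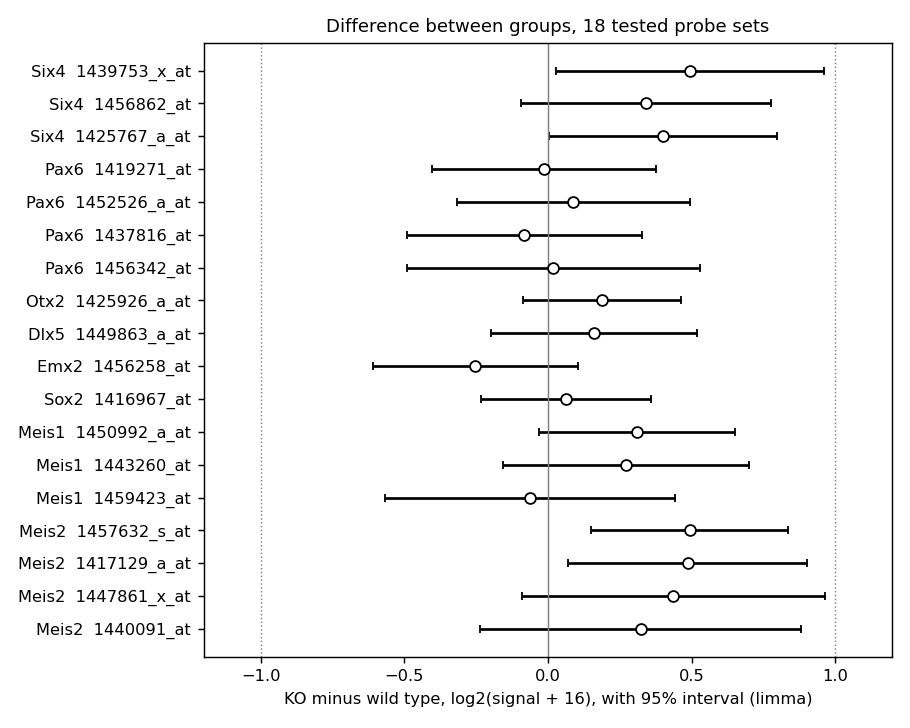
Log2 difference between groups (KO minus wild type, with 95% interval from limma) for the 18 tested probe sets. Estimates run from -0.25 for Emx2 to 0.50 for Six4 1439753_x_at, and no interval passes the dotted lines of a 2-fold change.

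Arrays of the same group differed in these factors by amounts that depended on the gene. For the brightest probe set of each gene the SD was 8.10% to 43.3% of the mean in wild type, lowest in Pax6 and highest in Six4, and 18.6% to 25.8% in KO. Each gene's brightest probe set was set against its group mean on the log2(signal + 16) scale, and the deviations of the 28 pairs of genes were compared over the 11 arrays, as a description with no test, since the arrays share their scaling, RNA quality and tissue makeup. Emx2 and Sox2 went together most closely (r = 0.94, rho = 0.89), also within wild type (r = 0.95) and KO (0.93). Without the 2 arrays where Emx2 lay farthest from its median deviation r was 0.92. It was 0.88 after scaling on the array median, and 0.91 and 0.94 within the arrays of higher and lower poly-A controls. Meis1 and Meis2 came next (r = 0.88, rho = 0.81), though without the 2 arrays farthest for Meis1 r was 0.56. Pax6 and Otx2 lay at the other end (r = -0.14). Deviations followed the median signal of the array strongly for Six4 (r = 0.84), Sox2 (0.71), Emx2 (0.67) and Meis2 (0.66), and hardly for Pax6 (0.066) and Otx2 (0.23). They followed the GAPDH ratio inversely, most in Emx2 (r = -0.78) and Sox2 (-0.71) and least in Otx2 (-0.14). The part of the GAPDH ratio in the likeness of Emx2 and Sox2 was not tested.

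**Figure D4:**
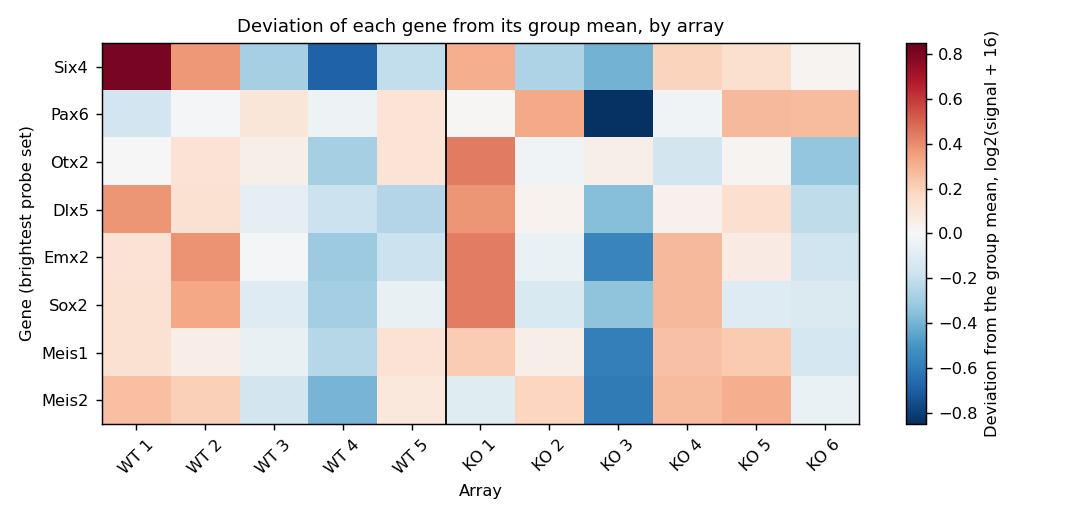
Deviation of each gene's brightest probe set from its group mean, log2(signal + 16), on the 5 wild type and 6 KO arrays. KO replicate 3 is below the group mean in 7 of the 8 genes, with Otx2 (0.052) above it, and Pax6 deviates furthest there (-0.84).

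The genes whose deviations were most like those of each factor were also found, among 18212 probe sets of at least 100 mean signal, by Pearson's r over the 11 arrays. For Meis2 they were Camsap3 and Foxc2 (both r = 0.98), for Meis1 Wdr37 and Ptgr2 (both 0.96), and for Emx2 Rmi1 (0.98) and Mosmo (0.97). Sox2 had Cdc7 (0.98) and Khnyn (0.96), Pax6 had Eif3e (0.99) and Mocs2 (0.98), and Six4 had Ppp2r5c (0.97) and Prkd2 (0.96). Dlx5 was nearest to Usp20 (0.96) and Six3 (0.95), a relative of Six4 that patterns the anterior head, and Otx2 to Tpra1 and Rtn4rl1 (both 0.93). Being the best of 18212 over few arrays, these values are a description and no test.

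Among 97 tested genes of 10 lists of related factors and signals, 0 passed the threshold in either direction, and the lowest adjusted p was 0.424. An unadjusted limma p under 0.05 was found for 9, against 6.92% of all probe sets. Estimates were above 0 for 67 of the 97, against 60.4% of all probe sets, with a median of 0.10 against 0.047. Of the other SOX factors, 11 of 12 estimates were above 0, with a median of 0.18. Their members of smallest p, Sox4 and Sox11, which act in new neurons, differed by 0.34 ± 0.15 (adjusted p = 0.666) and 0.23 ± 0.11 (adjusted p = 0.706, both SE). Other Dlx and Msx factors had a median of 0.30 over 7 genes, and of these Dlx6, the neighbour of Dlx5, differed by 0.30 ± 0.17 and Dlx1 by 1.07 ± 0.62 (both SE). Dlx1 was at 1.1 to 36.2 in wild type and 1.8 to 375.5 in KO, with a KO SD (144) above the KO mean (89.6).

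The other TALE factors, which are Pbx, Pknox and Tgif genes and Meis3, had 5 of 8 estimates above 0, against 60.4% of all probe sets. Their median was 0.070. Pbx4, the list's member of smallest p, was dim (14.6 ± 12.6 and 33.0 ± 10.8, SD, n = 5 and 6, limma adjusted p = 0.424), and Tgif1 differed by 0.41 ± 0.19 (SE, adjusted p = 0.679). The Six4 partners, the Eya and Dach genes, together with its own relatives had a median of 0.10 over 9, with Six5 at 0.21 and Dach2 at -0.24. Other Pax genes had 3 of 6 estimates above 0, led by Pax9 (0.32) and Pax7 (0.27). Head homeobox genes had a median of 0.15 over 9 (Alx4 0.45, Emx1 0.54), and forkhead genes 0.011 over 12 (Foxo3 0.43, Foxd3 0.58).

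The placode signals, fibroblast growth factor, BMP, hedgehog and retinoic acid ligands, enzymes and targets, had a median of 0.038 over 21 genes, and Bmp7 and Bmp4 each differed by 0.35 (limma adjusted p = 0.619 and 0.672). Zinc finger and AP-2 factors had a median of 0.18 over 7, with Sall1 at 0.26 and Zic1 at 0.61 beside a standard error of 0.55. Transcripts overlapping or opposite to the factors gave a median of 0.17 over 6, with Dlx6os1 at 0.37 (adjusted p = 0.665) and Sox2ot at 0.32. In the same fit 2 of 4 tested markers of neuronal progenitors were higher in KO, Neurog1 (351.0 ± 41.9 against 696 ± 213, log2 difference 0.91, adjusted p = 0.0364) and Neurod1 (0.66, adjusted p = 0.0214), both bHLH factors of new OSNs. For 5 markers of supporting cells the summed signals were 23333.1 to 25182.9 in wild type and 22762.3 to 26108.4 in KO. For 5 mesenchyme markers they were 9550.7 to 12108.5 and 8562.8 to 13521.4.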

How the data were processed

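Each array was deposited as linear intensities, with 1 value for every probe set. Per the study's methods, target was made by 2-cycle labelling, and the authors scaled each array to GAPDH (GCOS in the submitters' processing notes), so the scaling probe set reads 10000 on every array. The study's test in GeneSpring is not specified in the sources used here. Signals were used as log2(signal + 16), which understates changes of dim probe sets. Control probe sets and those with a mean signal under 20 were left out. KO and wild type were compared with limma 3.58.1 (R 4.3.3, lmFit and eBayes with an intensity trend, no covariate), with Benjamini-Hochberg adjustment over 33662 probe sets and a threshold of 0.05, after tests on simulated data. A gene was represented in lists by its brightest tested probe set. Of 45101 probe sets, 34958 had 1 symbol, 932 several and 9211 none. The 8 genes and all lists were chosen with earlier results of these data known. All member probe sets are named, and of each related list any called gene and the 2 of smallest p, and the 2 genes most like each member. Alternatives changed the scaling, pseudocount, filter, variance model, sex, replicate block, poly-A group and arrays included. Precision is limited by the number of arrays. Nothing in the labels gives litter or day, so p-values measure the spread between these preparations. Promoter sequences are from RefSeq.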

Additional observations from a re-analysis of the deposited data

Results flagged for a closer look

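In 4 of 36 checks of a group of arrays, 1 per group and tested probe set, a single array lay far from the rest, where chance gives about 1 in 20. The lowest array's gap to its nearest neighbour, as a share of the group's range on the log2 scale, was 0.699 for Pax6 1419271_at in KO replicate 3 (signal 285.5, nearest 513.9) and 0.628 for Meis2 1417129_a_at in the same replicate (484, nearest 894). It was 0.689 for the dim Pax6 1456342_at in KO replicate 2 (10, nearest 25.3) and 0.715 for Meis2 1417129_a_at in wild type replicate 4 (478.5, nearest 656.9). KO replicate 3 had the highest GAPDH 3′ to 5′ ratio (2.70), and wild type replicate 4 the lowest median signal (56.6). Their part in these values was not tested.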

How the results depend on the processing

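Under the alternatives the count of probe sets called higher was 1 without the 2 KO arrays of highest GAPDH ratio, from 0 to 2 with each array left out in turn, and otherwise 0, as was the count called lower and of related genes throughout. With the replicate number as a block, 0 passed and Meis2 1457632_s_at differed by 0.51 (limma adjusted p = 0.595), while calls over all probe sets went from 82 higher and 71 lower to 62 and 29. Same-numbered arrays did not deviate together (r = -0.28 to 0.0085 over probe sets), and 0 of 5 wild type arrays correlated best with their own number. Among the 14 probe sets of at least 100 mean signal direction changed in the following cases, none of them called, and the cause was not tested. Scaled on hybridization controls, Otx2 differed by -0.00013, Dlx5 by -0.011 and Sox2 by -0.13. With quantile normalization Sox2 differed by -0.012. Among arrays of higher poly-A controls the differences were -0.0052 for Six4 1456862_at, -0.028 for Otx2, -0.10 for Dlx5, -0.15 for Sox2, -0.11 for Meis1 1443260_at and 0.25 for Pax6 1419271_at. Pax6 also differed by 0.13 in males alone and with sex as a covariate, by 0.12 without the 2 KO arrays and by 0.0024 as the mean of its probe sets. With each array left out, Pax6 ran from -0.078 to 0.15 and Sox2 from -0.024 to 0.15. The 4 dimmer probe sets also crossed 0, Meis1 1459423_at from -0.41 to 0.13, Pax6 1437816_at from -0.22 to 0.0058, Pax6 1452526_a_at from -0.060 to 0.22 and Pax6 1456342_at from -0.100 to 0.19. The 3 Six4 probe sets otherwise stayed above 0, as did all 4 of Meis2, in every alternative run, and Emx2 stayed below 0 (-0.44 to -0.070). Higher calls were 53.6% of all calls as reported, 18.2% after scaling on hybridization controls, 41.0% after quantile normalization and 71.8% without the 2 KO arrays.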
